A study of Mus musculus with 6 samples.

Results

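AP-1 is a family of transcription factors that bind DNA as pairs of subunits from the Fos, Jun, ATF and BATF groups, joined through a leucine zipper next to a basic, DNA-binding stretch. The subunits described here were chosen by name: Fos, Fosb, Fosl1 and Fosl2 of the Fos group, Jun, Junb and Jund of the Jun group, and Atf2, Atf3 and Batf. All 10 were measured, among 18193 genes in all, by 18 of the 34945 probe sets that carried 1 gene symbol. Jun proteins pair with each other or with Fos proteins, whereas Fos proteins need a Jun partner, so the set of subunits that a cell holds decides which dimers can form. In fibroblasts, growth factors, serum and stress switch several of these genes on within minutes as immediate early genes, and the dimers act on genes of proliferation, matrix breakdown and inflammation. FHL2 is a LIM-domain adaptor known to bind Fos and Jun proteins, and the comparison asks which subunits fibroblasts hold and which differ when FHL2 is missing.

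Gene expression had been measured in mouse embryonic fibroblasts (MEFs) that became immortal in culture on their own. The FHL2-/- group, called knockout, holds 3 clones (E, H, J), and the WT (wild-type) group holds 3 clones (E, F, I). No treatment, age, strain or serum condition is given in the labels, and each line is 1 clone. RNA of each clone was read on 1 Affymetrix array as a log2 signal normalized with RMA, a procedure that corrects background, equalizes the distributions of the arrays and joins the probes of a set. The labels do not say if the clones of 1 genotype stem from different embryos. Knockout clone H differed from knockout clones E and J in the sex-linked genes Xist and Kdm5d, with values given below. The embryos of origin were not tested. The p-values set each difference against the spread between these clones only, part of which may be technical.

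Fhl2 itself read 6.01, 6.44 and 6.57 in the knockout clones (E, H, J), against 9.88, 8.57 and 9.64 in the WT clones (E, F, I) (limma adjusted p = 0.00400). The position of its probe set relative to the deletion is not given in the labels, so this reading checks the labels only in part. Without a detection call, a reading was called above background where it exceeded the 95th percentile, in the same array, of 26 genes of tissues such as liver, pancreas, retina and germ cells, a level of 5.22 to 5.81. By this measure Fhl2 still read above background in all 3 knockout clones, where the level was 5.53, 5.78 and 5.81 (E, H, J). Of 10 fibroblast markers, 9 read above background in all 6 clones, and the mean level of the list was 12.0 to 12.2 in knockout and 11.0 to 11.8 in WT clones. Dcn, Lum and Pdgfra rose (by 2.04, 4.81 and 1.76 log2 units), and Pdgfrb and Thy1 fell (-0.64 and -1.34). The called share of these markers was 50%, against 19.0% of all genes. Of 25 markers of epithelium, endothelium, leukocytes, skeletal muscle and glia, 2 read above background in all 6 clones, Epcam and the leukocyte marker Csf1r. Of the same 25 markers 2 rose, Epcam and Tek. Tek, an endothelial receptor, read 8.36, 4.68 and 8.91 in the knockout clones (E, H, J), against 3.27, 3.31 and 2.54 in the WT clones (E, F, I). The endothelial list averaged 4.29 to 4.92 in knockout and 3.49 to 3.99 in WT clones with Tek, and 3.71 to 4.20 in knockout and 3.73 to 4.16 in WT clones without it. The part of these markers in the results was not tested. Among the knockout clones H was the least like the others: its correlation over genes was 0.964 to 0.968 with the other knockout clones, which reached 0.991 with each other, and 0.988 to 0.991 was found among WT clones. It read Xist, the RNA of the silenced X chromosome, at 9.82, against 5.03 and 5.11 in knockout clones E and J, and the Y-linked gene Kdm5d at 2.34, against 6.55 and 7.72. The median signal of an array also moved with genotype, at 4.51 to 4.54 for knockout and 4.44 to 4.46 for WT. The values of WT clone E carry 9 decimals and those of the other clones 3.

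All differences are log2 values, knockout minus WT, each with its standard error (SE) from limma fitted across all genes (n = 3 clones per genotype). A gene is said to rise or fall where the Benjamini-Hochberg adjusted p lay under 0.05. Each gene is read at its probe set with the highest mean, and levels are compared only between clones, never between probe sets. The gene lists and named genes were chosen with earlier results of these data known, so their counts and shares are descriptions. Arrays have no depth, and their number limits the precision; the SE had a median of 0.141 over all genes. Each array read RNA of a whole culture, so fewer cells with a transcript and less RNA per cell cannot be told apart.

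Loss of FHL2 went with more Fosb and Jun and less Fosl1. Of the 10 subunits, 2 rose, 1 fell and 7 did not pass, where 19.0% of all genes passed, 9.04% as rises and 10% as falls. Over all genes rises were 47.5% of all calls, but 37.7% after each array was centred on its median. In 6 subunits the genotypes did not overlap: Fos, Fosb, Jun, Junb and Batf lay higher and Fosl1 lower in every knockout clone. Over all genes the share without overlap was 38.9%, with 20.7% higher and 18.2% lower in knockout clones. The median difference was 0.23 over the subunits and 0.04 over all genes. The calls of the rises changed when 1 clone was left out, as did the share of all genes that rose. Without knockout clone J, WT clone E or WT clone I 0 subunits rose, where 4.45%, 4.27% and 5.28% of all genes did. Without knockout clone H 3 rose, where 12.7% of all genes did. Without knockout clone E, Fosb, Jun and Junb rose, where 5.32% of all genes did. Without WT clone F, Fos and Fosb rose, where 4.91% did. The count of subunits thus did not always go with the share over all genes. With array weights 5 rose (13.2% of all genes), and 4 rose when only the more highly expressed genes were tested (15.5% of them). Batf was not tested in that last fit, in which 34.5% of the genes tested passed, 15.5% as rises and 19.0% as falls. These are higher shares than over all genes.

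**Figure D1:**
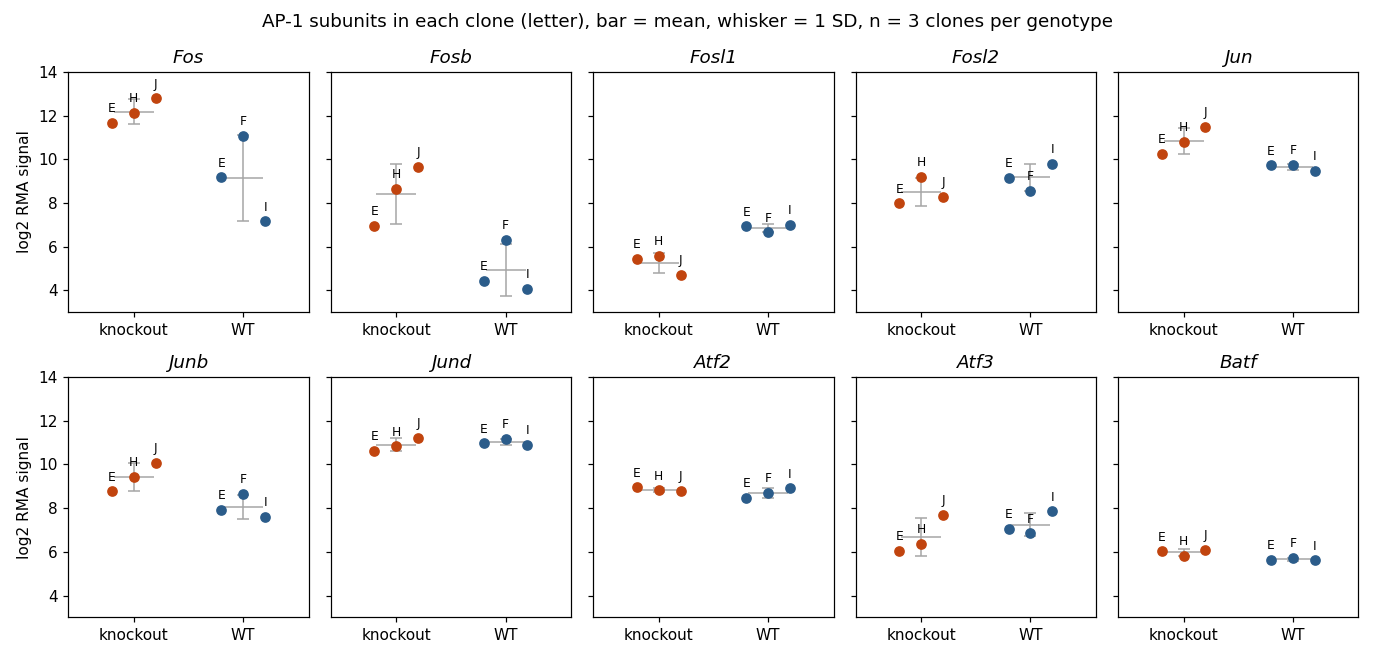
Log2 RMA signal of each AP-1 subunit (vertical axis) in the 3 knockout and 3 WT clones, 1 point per clone with its letter; bars are group means and whiskers 1 SD. Fos, Fosb, Jun and Junb lie higher and Fosl1 lower in all knockout clones, while Jund, Atf2, Atf3 and Fosl2 overlap; heights are not comparable between genes.

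The stretches upstream of Fos, Fosb, Jun and Junb are shown because these 4 genes lay higher in every knockout clone and are known to be controlled through elements close to their start. Each is the 177 bases, the most that the windows of all 4 genes hold, before the outermost start annotated by RefSeq (GRCm38.p6), read along the gene's strand, at chr12:85473713-85473889 (+) for Fos, chr7:19310119-19310295 (-) for Fosb, chr4:95052223-95052399 (-) for Jun and chr8:84978749-84978925 (-) for Junb. Capitals mark TGACGT, TGACNTCA and TTACCTCA.
Fos: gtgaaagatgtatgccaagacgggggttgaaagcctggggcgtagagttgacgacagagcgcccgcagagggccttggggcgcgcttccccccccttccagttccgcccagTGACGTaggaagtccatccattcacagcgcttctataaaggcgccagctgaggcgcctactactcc
Fosb: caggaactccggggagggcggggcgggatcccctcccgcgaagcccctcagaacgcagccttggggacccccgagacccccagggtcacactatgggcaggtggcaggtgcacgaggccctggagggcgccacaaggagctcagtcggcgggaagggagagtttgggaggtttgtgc
Jun: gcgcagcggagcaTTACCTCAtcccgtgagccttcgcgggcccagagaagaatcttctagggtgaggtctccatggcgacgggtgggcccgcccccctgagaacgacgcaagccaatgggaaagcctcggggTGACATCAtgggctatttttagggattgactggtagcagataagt
Junb: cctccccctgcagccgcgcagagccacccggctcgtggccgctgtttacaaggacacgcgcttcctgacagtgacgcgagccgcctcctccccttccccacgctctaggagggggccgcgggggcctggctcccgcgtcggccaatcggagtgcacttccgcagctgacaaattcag

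Jun carries TGACATCA from 45 and TTACCTCA from 164 bases before its start, which are known as the proximal and distal sites through which Jun and ATF2 dimers act on the Jun gene itself. Fos carries TGACGT, the core of a cyclic AMP response element bound by CREB and ATF proteins, from 66 bases before its start. RefSeq windows of 300 bases, from 250 before to 50 after a start, were at hand for 9 of the 10 subunits and were searched on both strands. TGACGT was found in 3 of these 9 (Fos, Atf3 and Batf) and in 7.51% of all 32851 windows. TGACNTCA, which overlaps TGACGT where N is G, was found in 1 of 9 (Jun) and in 8.83% of all. TTACCTCA was found in 1 of 9 (Jun) and in 0.889% of all. The AP-1 motif TGANTCA was in 0 of 9 and in 7.81% of all windows, and the CArG box of serum response factor in 0 of 9 and in 1.63%. A match describes the letters alone, and these windows do not reach farther elements. The start used for the Fosb window lies 73 bases downstream of its outermost start, so the printed Fosb stretch ends 73 bases before it. For Fos, Jun and Junb both starts coincide.

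Transcripts of the 4 Fos genes read above background in some or all of the clones. By this measure Fos and Fosl2 lay above background in 6 of 6 clones. Fosb did so in 3 of 3 knockout and 1 of 3 WT clones, and Fosl1 in 0 of 3 knockout and 3 of 3 WT clones. Affinities of probe sets differ, so a reading under this level does not show that a transcript was absent.

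Fos, the founding subunit and a classical gene of the serum response, read 11.65, 12.12 and 12.79 in the knockout clones (E, H, J), against 9.16, 11.08 and 7.16 in the WT clones (E, F, I). All knockout clones lay above all WT clones, and the WT clones spread over 3.92 log2 units, against 1.13 among knockout clones. Group means were 12.2 ± 0.570 in knockout and 9.14 ± 1.96 in WT clones (SD, n = 3). The difference of 3.05 (SE 0.93) did not pass (limma adjusted p = 0.0679). It passed without WT clone F, the WT clone with the highest reading (4.02, adjusted p = 0.0268), with array weights (adjusted p = 0.0480) and over the more highly expressed genes alone (0.0449).

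Fosb, which encodes a close relative of Fos with the same need for a Jun partner, showed the largest difference of the 10 subunits. It read 6.94, 8.63 and 9.64 in the knockout clones (E, H, J), against 4.43, 6.30 and 4.08 in the WT clones (E, F, I). Knockout and WT clones did not overlap, and WT clones E and I read at the level of background genes. Fosb rose by 3.47 (SE 0.83, limma adjusted p = 0.0330), or 11.1-fold, a size that is not exact with such low WT readings. Leaving out knockout J (adjusted p = 0.0947), WT E (0.118) or WT I (0.10) ended the call.

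Fosl1, which encodes Fra-1, a Fos protein that lacks the transactivating end of Fos and is itself a target gene of AP-1, moved the opposite way. It read 5.44, 5.57 and 4.72 in the knockout clones (E, H, J), against 6.93, 6.66 and 6.99 in the WT clones (E, F, I). The groups lay 1.09 apart at their nearest clones, the widest gap among the subunits. Fosl1 fell by 1.61 (SE 0.24, limma adjusted p = 0.00760), and its second probe set fell by 1.14. The call held in all 14 alternative fits, with adjusted p between 0.00292 and 0.0387, those without each clone included. Since all knockout readings lay at the level of background genes, the size of the fall is not exact.

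Fosl2, which encodes Fra-2, the other Fos protein without that transactivating end, read 7.98, 9.21 and 8.29 in the knockout clones (E, H, J), against 9.16, 8.56 and 9.78 in the WT clones (E, F, I). The genotypes overlapped, with knockout clone H as high as WT clone E. The difference of -0.67 had a 95% interval from -1.66 to 0.31 and did not pass (adjusted p = 0.310). Without clone H it was -1.03 (adjusted p = 0.0703). Its second probe set gave -0.61.

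**Figure D2:**
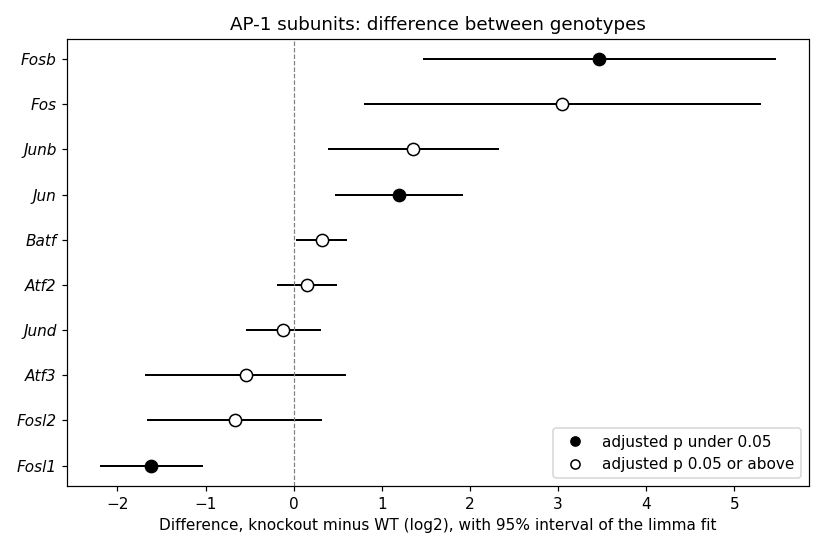
Difference between knockout and WT (log2, horizontal axis) for each of the 10 AP-1 subunits, with the 95% interval of the limma fit as a line; filled points passed after adjustment over all genes. Fosb and Jun lie to the right and Fosl1 to the left as filled points; the intervals of Fos, Junb and Batf clear 0 before adjustment, and the other 4 span it.

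All 3 Jun genes read above background in every clone of both genotypes. Jun, a main partner of Fos proteins and the substrate for which the JNK kinases are named, read 10.26, 10.79 and 11.47 in the knockout clones (E, H, J). It read 9.71, 9.75 and 9.47 in the WT clones (E, F, I), which lay within 0.28 log2 units of each other and below every knockout clone. Jun rose by 1.19 (SE 0.30, limma adjusted p = 0.0375), or 2.28-fold, and by 1.26 at its second probe set. Its call ended on leaving out knockout clone J (0.88, adjusted p = 0.0558), WT clone E (0.108), WT clone F (0.0926) or WT clone I (0.112).

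Junb, which encodes an immediate early Jun protein that can oppose Jun on shared sites, read 8.77, 9.44 and 10.07 in the knockout clones (E, H, J), against 7.93, 8.67 and 7.60 in the WT clones (E, F, I). The groups did not overlap, though knockout clone E and WT clone F lay only 0.097 apart. The difference of 1.36 (SE 0.40) did not pass (limma adjusted p = 0.0596). It passed without knockout clone E (1.69, adjusted p = 0.0433), with array weights (0.0471) and over the more highly expressed genes alone (0.0402).

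Jund, which encodes the Jun protein that resting cells keep, read 10.64, 10.83 and 11.22 in the knockout clones (E, H, J), against 10.97, 11.17 and 10.91 in the WT clones (E, F, I). The groups overlapped throughout. The difference was -0.12 with a 95% interval from -0.53 to 0.29 (adjusted p = 0.686), so its interval leaves out a rise as large as that measured for Jun. Its second probe set read 3.77 to 4.16 in the 6 clones, at the level of background genes.

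Atf2, an ATF subunit that pairs with Jun and is activated by stress kinases, read 8.95, 8.82 and 8.78 in the knockout clones (E, H, J), against 8.47, 8.72 and 8.91 in the WT clones (E, F, I). The groups overlapped, and the difference was 0.15 with a 95% interval from -0.18 to 0.48 (adjusted p = 0.504). Its 4 other probe sets gave differences of -0.09 to 0.15. Atf3, a subunit induced by stress that represses as a pair with itself, read 6.04, 6.37 and 7.69 in the knockout clones (E, H, J), against 7.04, 6.85 and 7.85 in the WT clones (E, F, I). Clone J lay apart from the other knockout clones and inside the WT range. The difference was -0.55 with a 95% interval from -1.68 to 0.59 (adjusted p = 0.478), and -1.04 without clone J (adjusted p = 0.115).

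Batf, a short subunit best known from lymphocytes, where it acts with Jun proteins and interferon regulatory factors, read 6.02, 5.81 and 6.10 in the knockout clones (E, H, J), against 5.64, 5.73 and 5.61 in the WT clones (E, F, I). All 6 readings exceeded the 95th percentile of the background genes but only 2 exceeded the highest of them. The groups did not overlap, with 0.073 between the nearest clones. The difference of 0.32 (SE 0.11) did not pass (adjusted p = 0.107). Leaving out knockout clone H brought it past the threshold (0.40, adjusted p = 0.0410), and so did array weights (0.37, 0.0352). For the subunits whose groups lay apart, an exact permutation test (two-sided, on group means) gave p = 0.10, which is the smallest p that 3 clones against 3 can give over 20 assignments.

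The order of the clones by Fos was taken as the reference, with earlier results known, so Fos matched it by construction. Within each genotype, Fosb, Jun, Junb and Jund placed the clones in the same order. Fos, Fosb, Jun, Junb and Jund were highest in clone J, then H, then E among knockout clones, and highest in clone F, then E, then I among WT clones. Over all genes 372, or 2.04%, showed this order of clones in both genotypes. Among the 29 immediate early genes, Zfp36 alone showed it. Atf3 had the knockout order but the order I, E, F in WT clones, and Fosl1 and Fosl2 also had I, E, F there. Some ranks rest on small differences: among WT clones Jun read 9.75 in F and 9.71 in E, and Jund 10.97 in E and 10.91 in I. Clones of a genotype have no set order, and this is a description of 6 arrays with no test.

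**Figure D3:**
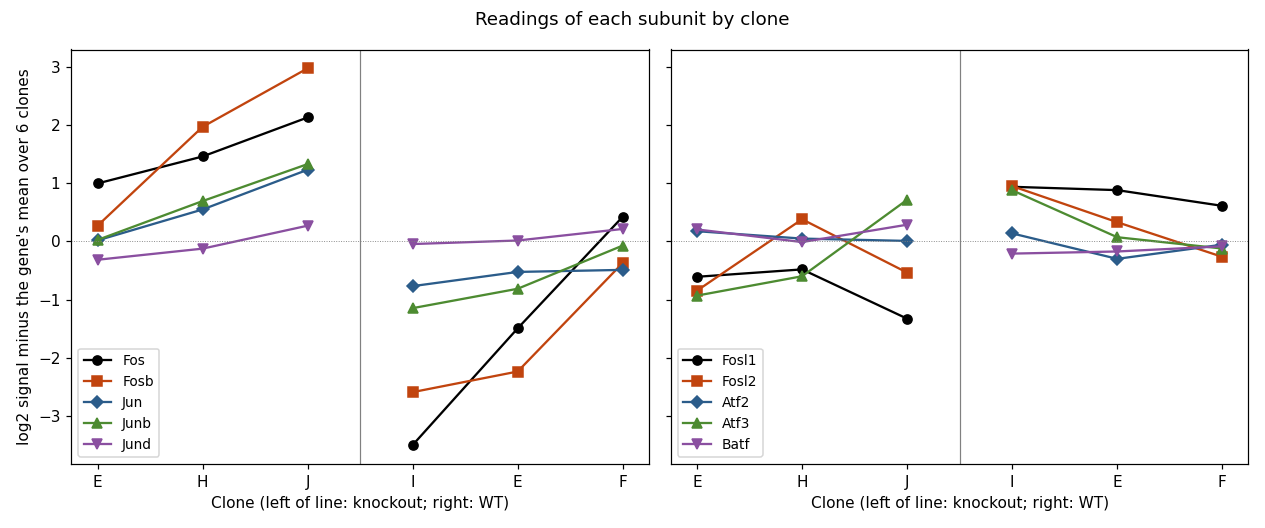
Log2 signal of each AP-1 subunit minus its mean over the 6 clones (vertical axis), by clone: knockout E, H and J left of the line, WT I, E and F right of it, arranged by their Fos reading; lines only join points of a gene. The panels were split by whether a subunit follows the order of Fos. On the left Fos, Fosb, Jun, Junb and Jund climb together in each genotype, while on the right Fosl1, Fosl2, Atf2, Atf3 and Batf do not follow that order.

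For the 3 subunits that passed, the genes with the nearest profile over the 6 clones were taken by the root mean square difference of log2 values after each gene's mean was subtracted. The nearest to Fosb were Eln, which encodes elastin (0.608), Scara3, a scavenger receptor (0.619), and Fos (0.764). The nearest to Jun were Maob, a monoamine oxidase (0.102), BC065403 (0.166) and Kcp (0.171). Maob and BC065403 read under the background level in all 6 clones. The nearest to Fosl1 were Sgk1, a kinase gene induced by serum and glucocorticoids (0.104), Trpc1, a cation channel (0.136), and Myo5a, a myosin (0.140). Trpc1 also read under the background level in all 6 clones. The measure is not scaled to a gene's own spread, so distances are not compared between Fosb, Jun and Fosl1.

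Other basic leucine zipper genes that pair with AP-1 subunits or compete with them lay more often below 0 (18) than above (8). Of all genes, which include those that read at background, 43.6% lay below 0. Of 26 measured of 28 listed, 1 rose, 6 fell and 19 did not pass, with a median difference of -0.24. The called share was 26.9%, with 3.85% rises and 23.1% falls, against 19.0%, 9.04% and 10% of all genes. When only the more highly expressed genes were tested, 1 relative rose and 5 fell, where 15.5% and 19.0% of those genes did. Crem and Creb5, among others, were not tested in that fit, so these counts are out of fewer relatives. Maff, a small Maf protein without a transactivating domain, read 5.28, 6.06 and 5.48 in the knockout clones (E, H, J), against 8.17, 8.16 and 7.74 in the WT clones (E, F, I). It fell by 2.41 (SE 0.23, limma adjusted p = 0.00242) and kept its call whichever clone was dropped, with knockout clones E and J under the background level. Its relative Mafk differed by -0.22 (adjusted p = 0.375). Jdp2, a repressor that pairs with Jun, read 9.66, 9.57 and 9.86 in the knockout clones (E, H, J), against 9.27, 9.04 and 9.41 in the WT clones (E, F, I), without overlap. Its difference of 0.45 did not pass (adjusted p = 0.0671), but did without knockout clone H (0.0489), with array weights (0.0330) and after quantile normalization again (0.0445). The Jdp2 difference rested on 1 probe set: it was 0.23 with its probe sets averaged (adjusted p = 0.149) and 0.0033 with _a_at probe sets and the like left out (adjusted p = 0.987). Batf2, Batf3 and Atf7 differed by 0.24, -0.34 and 0.26, and none of these 3 passed (adjusted p = 0.269, 0.249 and 0.655); Batf3 lay under the background level in all 6 clones.

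The gene that rose in that list was Cebpa, a factor of adipocyte and myeloid cells, singled out after its values were seen. It read 10.13, 7.67 and 9.49 in the knockout clones (E, H, J), against 4.50, 4.56 and 4.42 in the WT clones (E, F, I), and rose by 4.60 (SE 0.59, limma adjusted p = 0.00514). All 3 WT readings lay under the background level, so this size is not exact. Besides Maff, those that fell were Atf6, Bach2, Cebpb, Creb5 and Crem, and Bach2, Creb5 and Crem read under the background level in all knockout clones. Crem, Cebpa, Maff and Bach2, of these 7 called genes, kept their call whichever clone was dropped.

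Kinases and cofactors that act on AP-1 moved in both directions. Of 26 measured of 34 listed, 3 rose, 6 fell and 17 did not pass, with a median difference of -0.06. The called share was 34.6%, against 19.0% of all genes. When only the more highly expressed genes were tested, 4 regulators rose and 9 fell, where 15.5% and 19.0% of those genes did. Map3k5, among others, was not tested in that fit, so these counts are out of fewer regulators. The falls numbered 10 after centring on array medians and 3 after quantile normalization again or with a trended robust prior. Mapk8, which encodes JNK1, read 7.20, 6.88 and 6.80 in the knockout clones (E, H, J), against 7.73, 7.53 and 7.63 in the WT clones (E, F, I). It fell by 0.67 (SE 0.14, limma adjusted p = 0.0206), but differed by -0.24 with its probe sets averaged (adjusted p = 0.187). The call was also lost without knockout clone J (0.0711), WT clone E (0.0782), WT clone F (0.0519) or WT clone I (0.0626). Mapk9, which encodes JNK2, differed by 0.44 with no overlap (adjusted p = 0.0563), and passed with its probe sets averaged (0.0193), with array weights (0.0462), after quantile normalization again (0.0375) and over the more highly expressed genes alone (0.0474).

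Map2k4, the kinase gene whose product activates JNK, read 8.33, 8.19 and 8.29 in the knockout clones (E, H, J), against 7.84, 7.64 and 7.36 in the WT clones (E, F, I). It rose by 0.66 (SE 0.14, limma adjusted p = 0.0243), but leaving out knockout E (0.0761), knockout J (0.0819), WT F (0.0711) or WT I (0.0527) ended that call. Elk3, a ternary complex factor of the serum response element, differed by -0.71 without overlap (adjusted p = 0.0602). Leaving out knockout clone H it passed (-0.89, adjusted p = 0.0110), with array weights (0.0167), with its probe sets averaged (0.0211), after centring on array medians (0.0470) and over the more highly expressed genes alone (0.0434). Srf, the serum response factor, and Fbxw7, a ubiquitin ligase subunit that marks Jun for breakdown, overlapped between genotypes at their leading probe sets, and their values depended on the probe set. Srf differed by -0.11 at its leading probe set, -0.45 with its probe sets averaged and -0.79 (adjusted p = 0.0842) with _s_at probe sets and the like left out. Fbxw7 differed by -0.0048, -0.16 and -0.32 in these fits. Of the 9 called genes, Mapk7, Map3k5 and Nras, named after their values were seen, passed in each fit that leaves out 1 clone: Mapk7 (ERK5) rose by 1.52, Map3k5 (ASK1) by 1.14, and Nras fell by 1.20. Map3k5 read 4.25, 4.65 and 4.57 in the knockout clones (E, H, J), against 3.16, 3.35 and 3.54 in the WT clones (E, F, I), under the background level in all 6, so its size is not exact.

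Other immediate early genes included rises and falls. Of 29 measured, 6 rose, 5 fell and 18 did not pass, with a median difference of 0.17. Rises made up 20.7% and falls 17.2% of this list, against 9.04% and 10% of all genes. When only the more highly expressed genes were tested, 6 of the list rose and 5 fell, where 15.5% and 19.0% of those genes did. Arc, among others, was not tested in that fit, so these counts are out of fewer genes. Zfp36, which encodes an RNA-binding protein that destabilizes short-lived transcripts, read 9.51, 10.19 and 11.19 in the knockout clones (E, H, J), against 8.46, 8.98 and 7.52 in the WT clones (E, F, I). It rose by 1.98 (SE 0.52, limma adjusted p = 0.0433), but leaving out knockout J (0.106), WT E (0.119), WT F (0.0603) or WT I (0.110) ended that call, as did a trended robust prior (0.0555). Ier2 differed by 1.08 without overlap (adjusted p = 0.0831). Leaving out knockout clone H brought it past the threshold (1.32, adjusted p = 0.0339), and so did array weights (0.0334). Ier3, Dusp1 and Klf6 overlapped between genotypes, with differences of 0.15, 0.56 and 0.15.

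Ptgs2, the inducible cyclooxygenase, read 4.40, 9.81 and 5.49 in the knockout clones (E, H, J), against 8.98, 8.25 and 8.62 in the WT clones (E, F, I). Clone H lay above every WT clone, and clones E and J below them and under the background level. The difference was -2.05 (adjusted p = 0.335), and -3.67 without clone H (adjusted p = 0.00105). The genes that rose in the list, singled out after their values were seen apart from Zfp36, were Btg2, Egr2, Gadd45b, Klf2 and Klf4, and those that fell were Dusp6, Myc, Nr4a2, Plk3 and Sgk1. Gadd45b did not pass with its probe sets averaged (adjusted p = 0.0767). Klf4, a zinc-finger factor of growth arrest, rose by 2.17 (SE 0.33), and Btg2, an antiproliferative gene, by 2.27 (SE 0.30). Of these 11 genes, Nr4a2, Dusp6, Klf2, Klf4 and Btg2 passed in each fit that leaves out 1 clone.

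**Figure D4:**
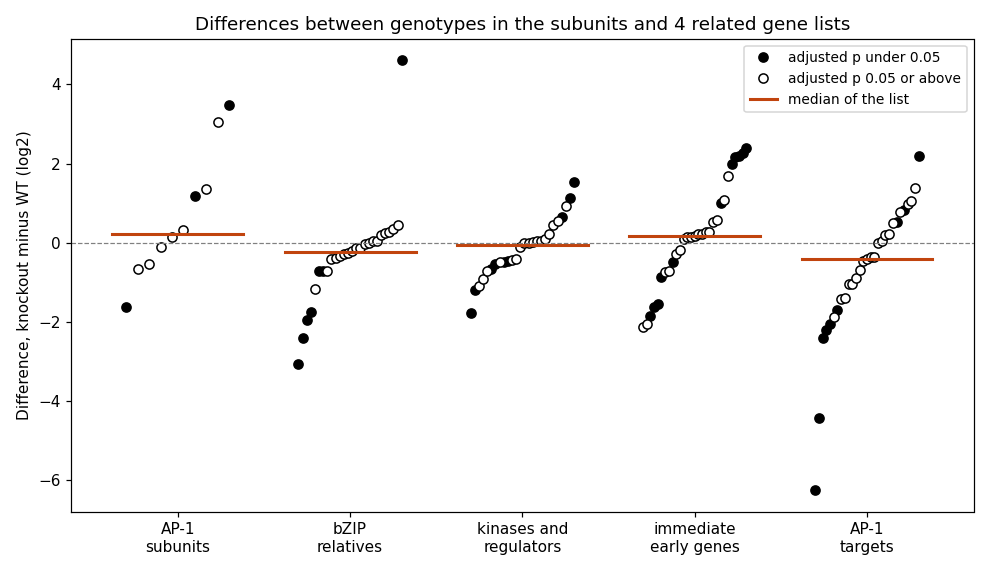
Difference between knockout and WT (log2, vertical axis) for each measured gene of the AP-1 subunits and of 4 related lists, sorted within a list; filled points passed after adjustment over all genes and the coloured bar is the list's median. The medians run from -0.42 for the AP-1 targets to 0.23 for the subunits, and every list holds genes that rose and genes that fell.

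Genes known from textbooks as AP-1 targets lay more often below 0 (18) than above (11) in knockout clones, a share below 0 of 62.1%, against 43.6% of all genes. All genes include those that read at background, and this share was not taken over the more highly expressed genes alone. Of 29 measured of 34 listed, 3 rose, 6 fell and 20 did not pass, with a median difference of -0.42 (0.04 over all genes). Rises made up 10.3% and falls 20.7% of the targets, against 9.04% and 10% of all genes. When only the more highly expressed genes were tested, 2 targets rose and 7 fell, where 15.5% and 19.0% of those genes did. Mmp9, Mmp13 and Plau, among others, were not tested in that fit, so these counts are out of fewer targets. Without knockout clone H, 4 rose and 15 fell, in a fit that called 26.1% of all genes, 12.7% as rises and 13.4% as falls. Mmp3, the stromelysin gene with an AP-1 site in its promoter, read 3.72, 4.30 and 3.24 in the knockout clones (E, H, J), against 7.14, 9.19 and 8.21 in the WT clones (E, F, I), and passed in all 14 alternative fits, with all knockout readings under the background level. Mmp13, another matrix protease, read 2.29 to 2.44 in knockout and 2.69 to 3.66 in WT clones, under the background level in all 6. Plau, the urokinase gene, read 3.51 to 3.71 in knockout and 3.33 to 3.89 in WT clones, also under that level.

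Plaur, the urokinase receptor, read 5.05, 6.66 and 4.56 in the knockout clones (E, H, J), against 6.84, 6.28 and 6.29 in the WT clones (E, F, I), with clone H inside the WT range. Its difference of -1.05 did not pass (adjusted p = 0.222), but did without clone H (-1.67, adjusted p = 0.00369) and with array weights (-1.46, 0.0336). Knockout clones E and J lay under the background level. The targets that rose were Ezr, Mmp9 and Mt2, and besides Mmp3 those that fell were Ccl2, Ccnd1, Hbegf, Hmga2 and Sprr1a, all named after their values were seen. Mmp9 lay under the background level in every WT clone and Sprr1a in every knockout clone. Ezr did not pass after centring on array medians (adjusted p = 0.0603). Hbegf, a growth factor of the EGF family, fell by 2.40 (SE 0.26) and Hmga2, a chromatin protein of embryonic cells, by 2.04 (SE 0.33). Of the 9 called genes, Mmp3, Mmp9, Hbegf, Sprr1a and Hmga2 passed in each fit that leaves out 1 clone.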

How the data were processed

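RNA of 3 knockout and 3 WT clones was read on 6 Affymetrix arrays (1 colour, biotin, a one-cycle labelling kit), per the labels. The deposited values are log2 signals that the authors made with RMA, per the submitters' processing notes, whose version and settings are not stated there. Of 45101 probe sets, 64 controls, 932 with several symbols and 9160 without a gene were left out, and the probe set with the highest mean represented each of 18193 genes. The comparison used lmFit and eBayes of limma 3.58.1 (R 4.3.3) with genotype as the only term, with Benjamini-Hochberg adjustment over all genes and a threshold of 0.05. The fit was also run on simulated data with independent noise for each gene. Such data hold no differences shared by the genes of a clone, so that run does not bear on the calls given here. Members, gene lists, named genes and alternatives were chosen with earlier results of these data known. The named genes were the 10 subunits, Fhl2, 6 genes from each of 4 lists and the 3 nearest profiles of each subunit that passed. Listed genes without a usable probe set, among them Il1rl1 and Hmga1, were not analysed here. Figures were drawn with matplotlib 3.10.9.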

Additional observations from a re-analysis of the deposited data

How the results depend on the processing

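The count of subunits that fell was 1 (Fosl1) in all 14 alternative fits. The count that rose, 2 as reported, was 4 over the more highly expressed genes (a mean at or above the median) and 5 with array weights, and ran from 0 to 3 when 1 clone was left out. Over all genes the count of calls was 3464 and ran from 1661 to 4750 when 1 clone was left out; the fits without a clone have fewer samples. With array weights it was 4926. Fewer genes tested is the construction of the level filter; the cause of the change with array weights was not tested. No subunit's difference changed sign past the threshold in any of these fits. Over all alternatives the relatives of AP-1 held 1 to 2 rises and 3 to 8 falls, the regulators 2 to 5 and 1 to 11, the immediate early genes 3 to 7 and 2 to 8, and the targets 1 to 4 and 4 to 15. Over all genes tested in these fits the share of rises ran from 4.27% to 15.5% and that of falls from 4.86% to 19.0%. The ranges of the lists are to be read beside these shares. Subunits above background in all 6 clones numbered 8, and 7 against the highest reading of the background genes. No paired analysis was possible because the genotypes share only the clone letter E. Rises were 47.5% of all calls, 37.7% after centring on array medians and 51.2% after quantile normalization again. Readings at or under background limit the sizes given for Fosb and Fosl1, and likewise for Cebpa, Map3k5, Maff, Bach2, Creb5, Crem, Ptgs2, Plaur, Mmp3, Mmp9 and Sprr1a.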
